A study of Mus musculus with 4 samples.

Results

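The genes described here are 10 components of fibroblast growth factor (FGF) signalling, of 22180 genes measured: the ligand genes Fgf4, Fgf8, Fgf15 and Fgf17, the receptor gene Fgfr1, and 5 genes that the pathway switches on as outputs, Dusp6, Spry2, Spry4, Etv4 and Etv5. They were chosen by name, each measured by the probe sets whose only annotated symbol is that gene, and a gene with several probe sets is represented by the brightest on average. All 10 were found. The samples are embryoid bodies, the aggregates that embryonic stem cells form as they start to differentiate, here from the mouse embryonic stem cell line R1. After removal of feeder cells, cells were kept for 18 h without the self-renewal cytokine LIF with 1.88 µM GSK-J4, a KDM6 inhibitor, with 1.88 µM of its control compound GSK-J5, with the solvent DMSO, or in EB medium alone. KDM6 enzymes remove a repressive methyl mark from histone H3. Each treatment was measured on 1 Affymetrix array, 4 in all, so no value has a replicate, no difference could be tested and no interval can be given for one. All values are log2 expression levels, and a difference of 1 is a 2-fold difference.

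FGF ligands bind receptor tyrosine kinases at the cell surface and, through RAS, RAF and MEK, activate the kinase ERK. In mouse embryonic stem cells Fgf4 is the main ligand the cells make for themselves, and its ERK signal is needed for them to leave the naive state. ERK in turn raises transcription of its own brakes: Dusp6 encodes a phosphatase that inactivates ERK, and Sprouty proteins such as Spry2 and Spry4 restrain signalling between the receptor and ERK. Etv4 and Etv5 encode ETS transcription factors that carry out part of the response to FGF. For these reasons transcript levels of Dusp6, Spry and Etv genes are often read as a gauge of FGF-ERK output, although no array measures the activity of the kinase itself.

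Of 10 genes, Fgf15 alone differed by the 1.5-fold rule used throughout, which calls a gene lower in GSK-J4 if its level there is under that of every control array by 1.5-fold or more (a log2 difference of 0.585), and higher if it exceeds every control by as much. Fgf15 was lower, and 0 of 10 were higher. Over all genes 0.681% were lower and 1.54% higher by the same rule, and among the 13314 genes at or above the 40th percentile of mean level, which all 10 genes reached on every array, 0.841% were lower and 2.21% higher. Counting any distance outside the controls, 8 of 10 lay below all 3 controls, beside 36.3% of all genes and 35.5% of the brighter 13314. Fgfr1 was the 1 gene above them, beside 30.6% and 38.0%. Dusp6 lay within the range of the controls. Apart from Fgf15 these distances were 0.02 to 0.20 in size. For scale, the differences between the GSK-J5 and DMSO arrays had a standard deviation of 0.133 over the brighter genes. Those are plain differences between a pair of arrays, and a distance to the nearest of 3 controls is never larger than the plain difference from any of them. Plain differences of GSK-J4 from a control had standard deviations of 0.284 to 0.305 over the same genes.

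**Figure D1:**
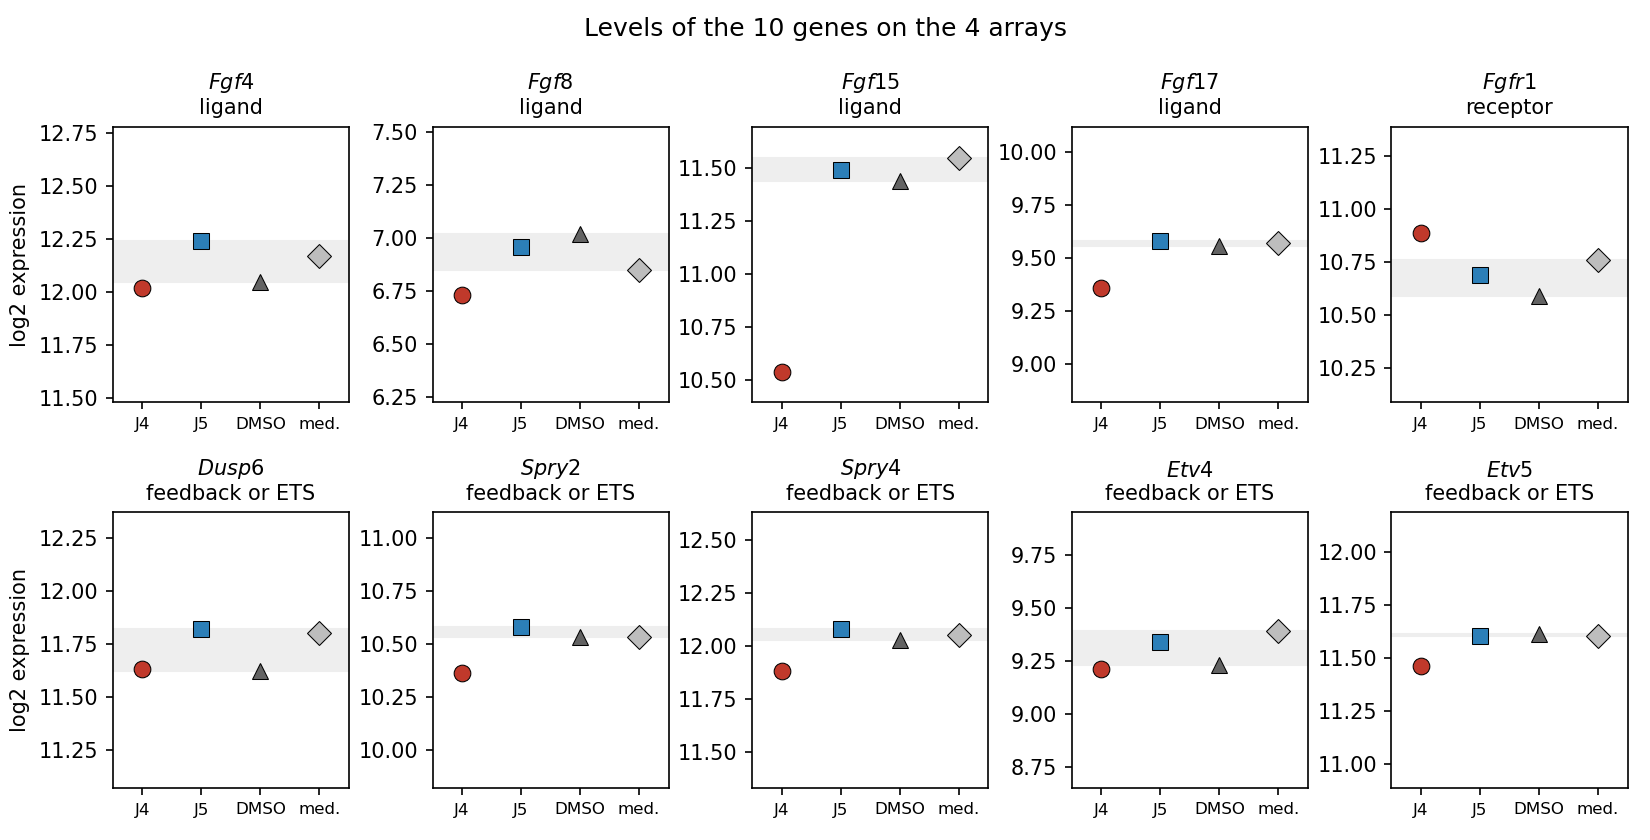
Log2 expression of each of the 10 genes on the GSK-J4 (J4), GSK-J5 (J5), DMSO and EB medium (med.) arrays, 1 point per array, with the range of the 3 controls shaded and the same vertical span in every panel. Fgf15 sits at 10.54 for GSK-J4, with the controls at 11.44 to 11.55, and no other gene left the shaded range by more than 0.20.

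Promoter sequence is shown for 2 output genes, Dusp6 and Etv5, at the starts where matches to the cores given below were found. In GSK-J4 the level of Dusp6 lay within the controls and that of Etv5 below all of them. Only the DMSO array set the genes apart in this way. The differences of Dusp6 and Etv5 were −0.19 and −0.14 from GSK-J5, 0.01 and −0.15 from DMSO, and −0.17 and −0.14 from EB medium. Of the 10 genes, 4 (Fgf4, Dusp6, Spry2 and Etv5) have an entry among the RefSeq promoters of GRCm38.p6, and Etv5 has one for each of 2 annotated starts. The 250 bases before the start of Dusp6 are chr10:99262981-99263230 on the plus strand, and those before the second, inner start of Etv5 are chr16:22438369-22438618 on the minus strand. Capitals mark CGGAA, the core bound by ETS factors, and TGAATG, the core of sites bound by the repressor CIC, which ERK inactivates, on either strand.
Dusp6: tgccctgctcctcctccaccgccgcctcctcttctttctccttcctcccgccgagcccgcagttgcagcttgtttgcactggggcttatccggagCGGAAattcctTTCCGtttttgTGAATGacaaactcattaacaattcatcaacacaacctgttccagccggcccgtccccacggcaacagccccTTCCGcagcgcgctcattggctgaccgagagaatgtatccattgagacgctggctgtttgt
Etv5: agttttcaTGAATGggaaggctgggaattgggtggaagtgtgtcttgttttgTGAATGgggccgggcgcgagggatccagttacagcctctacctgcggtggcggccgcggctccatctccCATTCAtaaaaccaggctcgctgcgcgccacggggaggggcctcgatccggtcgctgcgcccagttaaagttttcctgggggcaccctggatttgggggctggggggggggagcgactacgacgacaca

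The Dusp6 window holds 3 CGGAA matches and 1 TGAATG match, and the Etv5 window holds 3 TGAATG matches and 0 CGGAA matches. Among 32841 RefSeq windows of the same length, 25.2% hold CGGAA at least once and 2.13% at least 3 times, while 10.9% hold TGAATG at least once and 0.131% at least 3 times. Neither core was found in the windows of Fgf4, Spry2 or the outer Etv5 start. The longer forms CCGGAA (12.0% of windows) and TGAATGNA (3.20%), which contain the short cores, were not found in any of these windows, nor were the AP-1 motif TGANTCA (6.75%) or the TCF/LEF motif CTTTGAT (3.21%). The short cores were searched after the longer forms gave no match. The windows shown were those with matches, and 3 equals the counts found in them. The shares with at least 3 matches therefore do not measure how rare such windows are. These matches describe letters in the reference sequence, and no binding was measured.

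Among the ligands, the level of Fgf15 was 10.54 in GSK-J4, against 11.49 in GSK-J5, 11.44 in DMSO and 11.55 in EB medium. The GSK-J4 array therefore stood apart from 3 controls that lay within 0.11 of each other, and the distance to the nearest control was −0.90, a 1.87-fold lower level. Fgf15, the mouse counterpart of human FGF19, is an endocrine FGF in the intestine and is also expressed in the early nervous system. Of the 22180 genes, 25 had a distance further below the controls. The 1.5-fold rule was also met by the average of both Fgf15 probe sets, at −0.69. The dimmer probe set taken alone read 7.48 in GSK-J4, against 7.98 in GSK-J5, 7.96 in DMSO and 7.86 in EB medium, a distance of −0.38 in the same direction but short of the rule.

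Fgf4 read 12.02 in GSK-J4, against 12.24 in GSK-J5, 12.05 in DMSO and 12.17 in EB medium. The GSK-J4 and DMSO arrays were 0.03 apart, while GSK-J5 and DMSO, both controls, were 0.19 apart, so the Fgf4 values did not separate GSK-J4 from the controls. Fgf4 and Fgf15 are neighbours on mouse chromosome 7 in RefSeq, with a long non-coding RNA gene between them and Fgf3 on the far side of Fgf4. Fgf3 read 6.08 in GSK-J4, against 6.04 in GSK-J5, 6.03 in DMSO and 6.37 in EB medium, within the range of the controls. Fgf3, named after its values were seen, was under the filter level of 6.585 (the 40th percentile of mean level) on all arrays and was not shown to be above background, so its values say little about a lower level. Set against each control, the GSK-J4 difference of Fgf15 was lower than that of Fgf4 by 0.73 to 0.87.

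Fgf17 and Fgf8 belong to one FGF subfamily, active in the primitive streak and at organising centres of the embryonic brain. Fgf17 read 9.36 in GSK-J4, against 9.58 in GSK-J5, 9.56 in DMSO and 9.57 in EB medium. Its controls lay within 0.02 of each other and GSK-J4 lay 0.20 below them, a distance that 10.5% of all genes matched or exceeded in the same direction. Fgf8 read 6.73 in GSK-J4, against 6.96 in GSK-J5, 7.02 in DMSO and 6.85 in EB medium. The distance of Fgf8 was −0.12, smaller than the 0.17 by which its controls differed. Fgf8 read just above the filter level, and detection could not be examined without scanner files.

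Fgfr1, the main FGF receptor of epiblast cells, went the other way from most of the group. It read 10.89 in GSK-J4, against 10.69 in GSK-J5, 10.59 in DMSO and 10.76 in EB medium. The GSK-J4 array was the highest of the 4, by 0.13 over EB medium, and the controls themselves spanned 0.17. Of all genes, 84.9% had a distance at or below that of Fgfr1.

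Of the outputs, the Sprouty genes gave the same picture. Spry2 read 10.36 in GSK-J4, against 10.58 in GSK-J5, 10.53 in DMSO and 10.53 in EB medium. Spry4 read 11.88 in GSK-J4, against 12.08 in GSK-J5, 12.03 in DMSO and 12.05 in EB medium. For both genes the 3 controls lay within 0.05 of each other and GSK-J4 lay below them, by 0.17 for Spry2 and 0.15 for Spry4. These are 1.13-fold and 1.11-fold lower levels, and 13.2% and 15.3% of all genes had distances at or below them.

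The phosphatase gene Dusp6 read 11.63 in GSK-J4, against 11.82 in GSK-J5, 11.62 in DMSO and 11.80 in EB medium. GSK-J4 and DMSO differed by 0.01, and both lay below GSK-J5 and EB medium, so the direction for Dusp6 depended on the control chosen. Without the DMSO array its distance would be −0.17. A second Dusp6 probe set, at 5.62 in GSK-J4 against 5.14 in GSK-J5, 5.40 in DMSO and 5.42 in EB medium, lay 0.20 above the controls but under the filter level on all arrays, so it was not shown to be above background.

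The ETS factor gene Etv5 read 11.46 in GSK-J4, against 11.60 in GSK-J5, 11.61 in DMSO and 11.60 in EB medium. The controls agreed within 0.01, GSK-J4 was 0.14 lower, and 16.4% of all genes had a distance at or below this. A second Etv5 probe set also read lowest in GSK-J4, at 8.97 against 9.21 in GSK-J5, 9.12 in DMSO and 9.06 in EB medium. The probe sets were not tied to either of the starts described above. Etv4, its close relative, read 9.21 in GSK-J4, against 9.34 in GSK-J5, 9.23 in DMSO and 9.39 in EB medium. As with Dusp6 and Fgf4, the Etv4 level in GSK-J4 was next to that in DMSO, 0.02 below it, while the controls spanned 0.16.

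**Figure D2:**
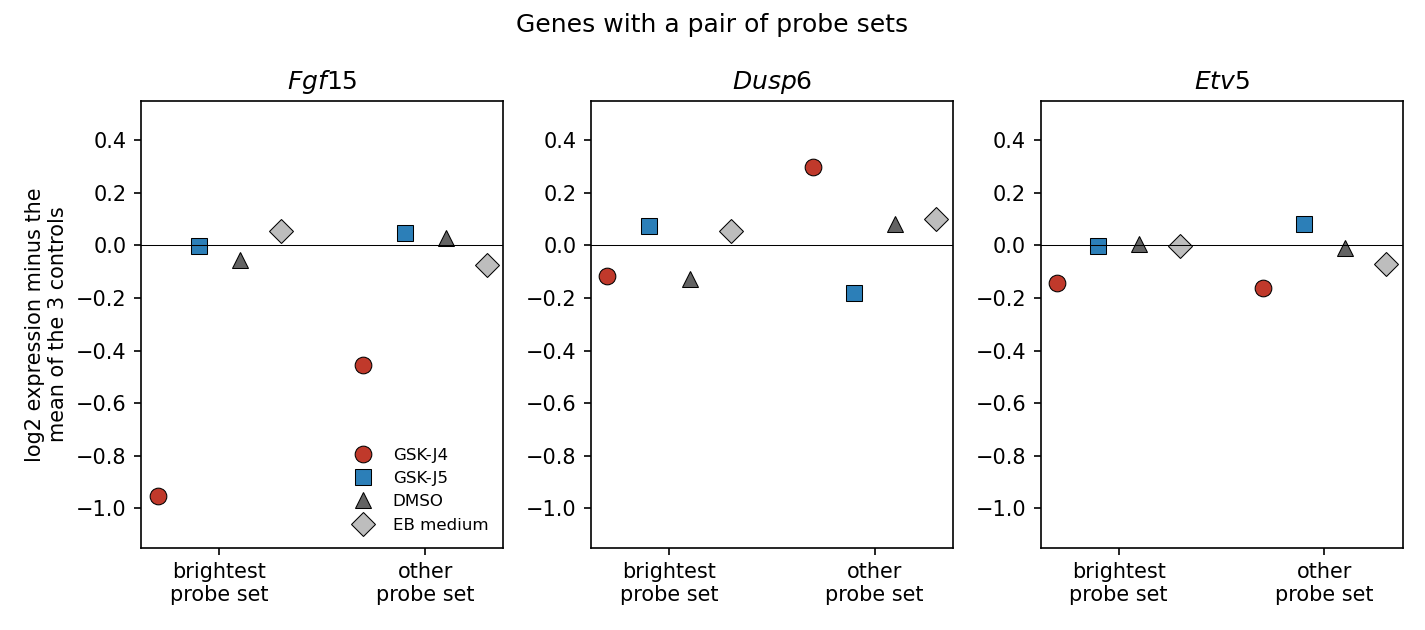
Log2 expression minus the mean of the 3 controls for both probe sets of Fgf15, Dusp6 and Etv5, 1 point per array. Both Fgf15 probe sets were lowest in GSK-J4, with distances to the nearest control of −0.90 and −0.38, as were both of Etv5 (−0.14 and −0.09), while the dim second probe set of Dusp6 was highest there.

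Ligands and outputs were then set against each other. Between GSK-J4 and GSK-J5 the median difference was −0.225 over the 4 ligands and −0.19 over the 5 feedback and ETS genes, beside −0.02 over all genes. The output median thus lay 0.035 above the ligand median. Against DMSO the medians were −0.245 for ligands and −0.15 for outputs, and against EB medium −0.18 for ligands and −0.17 for outputs, beside −0.02 and −0.01 over all genes. These 3 comparisons share the GSK-J4 array.

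Means set the groups further apart than medians because Fgf15 enters them in full. Against GSK-J5 the mean was −0.405 over the ligands and −0.176 over the outputs, and without Fgf15 the ligand mean was −0.22. With Fgf15 left out, the other 3 ligands had GSK-J4 minus GSK-J5 differences of −0.23 to −0.22, and the outputs −0.22 to −0.13. The Fgf15 difference of −0.95 lay at or above that of 0.234% of all genes. The ranges of ligand and output differences met or overlapped in all 3 comparisons, and Fgf15 was the gene that lay apart from the other 9.

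**Figure D3:**
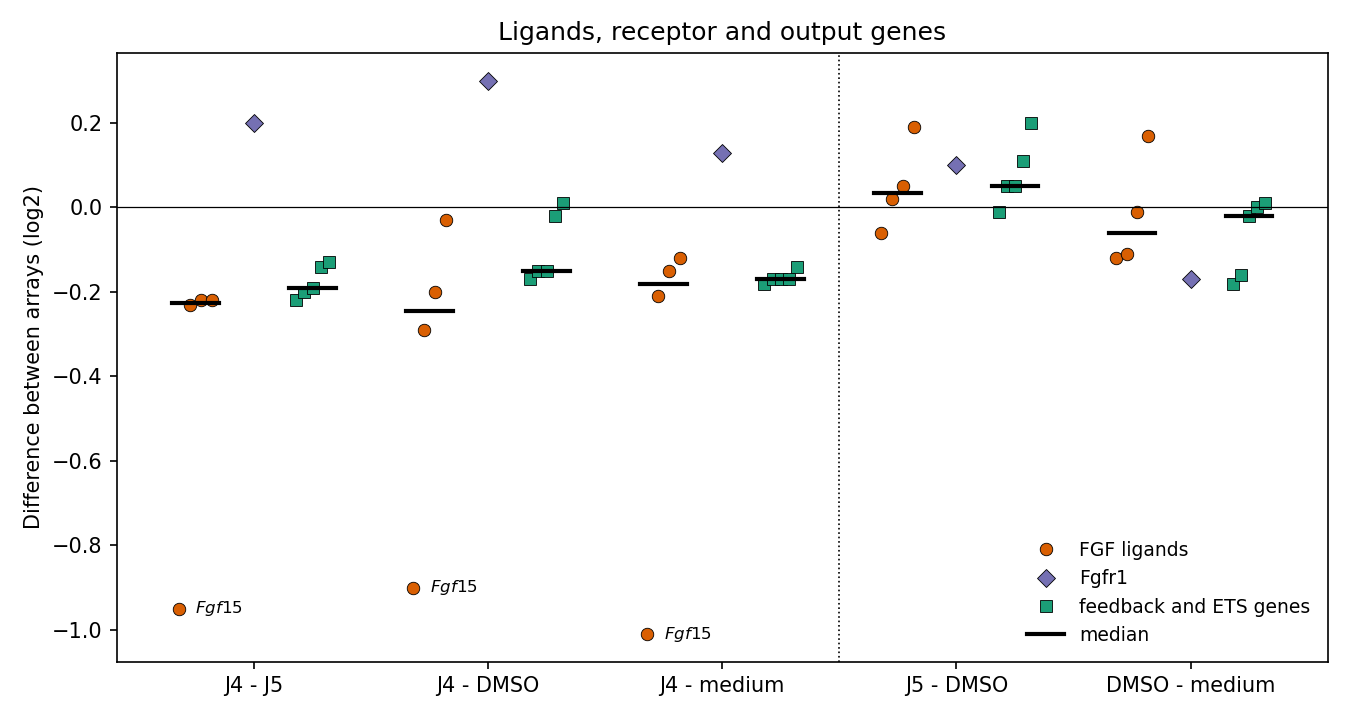
Differences between arrays (log2) for the ligand genes, Fgfr1 and the feedback and ETS genes, 1 point per gene, with bars at the medians of the ligands and of the outputs; right of the dotted line both arrays are controls. Fgf15 lies at −0.95, −0.90 and −1.01 in the GSK-J4 comparisons, and the medians of ligands and outputs lie within 0.095 of each other in each of them.

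GSK-J4 and GSK-J5 were compared at the same dose and time, as 1 pair of arrays. In GSK-J4, 9 of the 10 genes read lower than in GSK-J5, beside 53.2% of all genes, and 1 of 10 was lower by 1.5-fold, beside 2.0% of all genes, and 0 higher, beside 2.86%. The difference has no interval, so a shared level in both compounds is not shown for any of the other 9. Between the controls, GSK-J5 minus DMSO differences ran from −0.06 for Fgf8 to 0.20 for Dusp6, and 8 of the 10 genes were higher in GSK-J5, beside 51.3% of all genes. DMSO minus EB medium differences ran from −0.18 for Dusp6 to 0.17 for Fgf8. The DMSO array was the lowest control, or tied for it, in 8 of the 10 genes, and GSK-J5 was the highest in 5. The order of the controls was not counted over all genes, so these counts have no background beside them. In either control comparison 0 of 10 genes passed 1.5-fold (background 0.537% lower and 0.509% higher for GSK-J5 minus DMSO, 0.6% and 0.726% for DMSO minus EB medium).

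**Figure D4:**
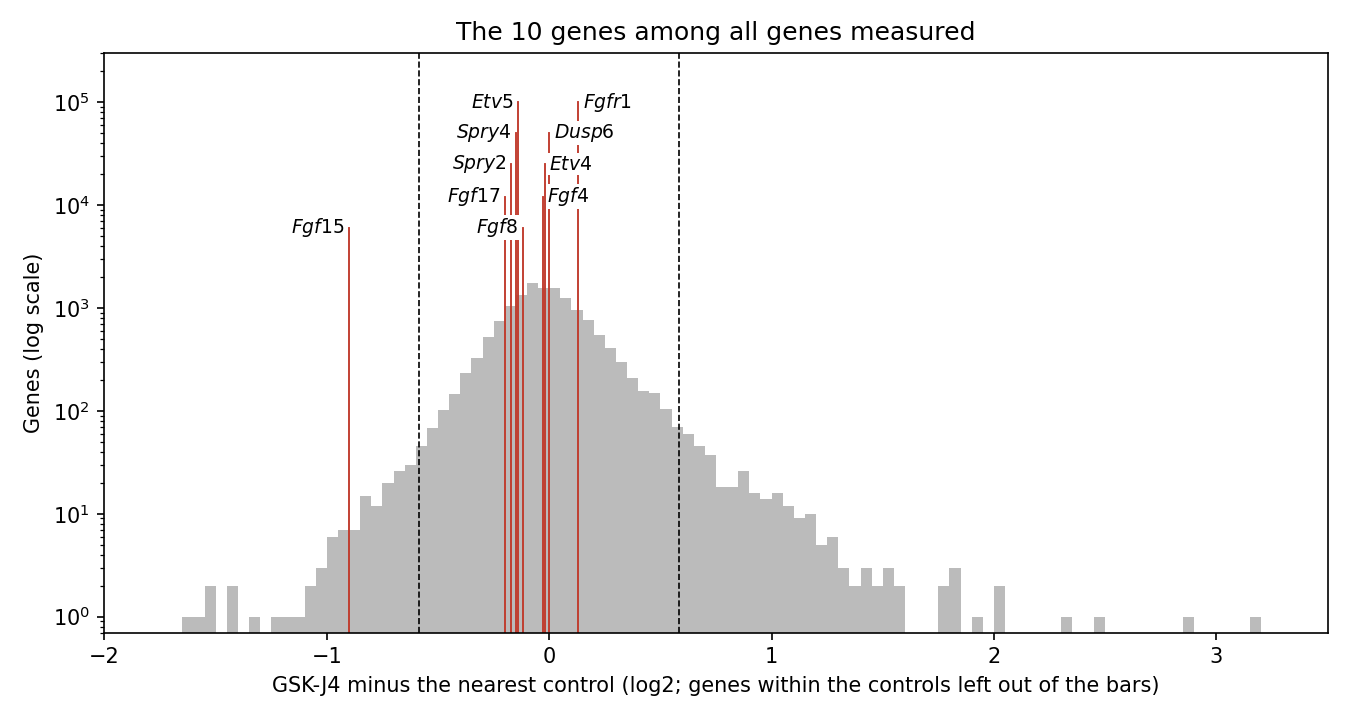
Number of genes (log axis) by the distance of the GSK-J4 array to the nearest control on the log2 scale, with the 10 genes as red lines, whose height carries no value, and the 1.5-fold rule as dashed lines. Fgf15 lies at −0.90, beyond the dashed line, and the other 9 genes lie between −0.20 and 0.13 in the body of the distribution.

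The rest of the pathway was described with 5 lists. Of 18 other FGF ligand genes, 2 were lower in GSK-J4 by 1.5-fold and 0 higher, beside 0.681% and 1.54% of all genes, and 11 lay below all controls, beside 36.3%. Fgf5, a ligand of the epiblast that stem cells raise on leaving the naive state, read 7.23 in GSK-J4, against 8.66 in GSK-J5, 8.83 in DMSO and 8.82 in EB medium, a distance of −1.43. Fgf23, a hormone of phosphate balance made in bone, read 5.74 in GSK-J4, against 6.74 in GSK-J5, 6.66 in DMSO and 6.70 in EB medium. Its mean was under the filter level, so the distance of −0.92 is not exact. Only 6 of these 18 genes reached the filter level, and Fgf5 was the 1 lower gene among them, and the list's median difference from GSK-J5 was −0.18.

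Among 23 measured genes for other FGF receptors, co-receptors and heparan sulfate, the sugar chains that hold FGF on its receptor, 2 were higher and 0 lower, beside 1.54% and 0.681% of all genes. Glce, the epimerase that modifies heparan sulfate chains, read 11.61 in GSK-J4, against 10.47 in GSK-J5, 10.66 in DMSO and 10.66 in EB medium. A second Glce probe set lay 1.10 above its controls. Sdc4, a cell surface proteoglycan that carries such chains, read 11.42 in GSK-J4, against 10.67 in GSK-J5, 10.65 in DMSO and 10.77 in EB medium. These 2 genes lay 0.95 and 0.65 above the nearest control, and the list median against GSK-J5 was −0.01.

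Adaptors and members of the RAS-ERK cascade showed 0 of 17 genes past the rule in either direction, with a median of 0.04 against GSK-J5. All 17 reached the filter level, where 0.841% of genes were lower and 2.21% higher. The members furthest from GSK-J5 were Araf, a RAF kinase, which lay 0.44 above the nearest control, and Nf1, which switches RAS off, which lay 0.40 above it. The other 8 genes of that list had no probe set with a single symbol and were not used here. Among 20 other feedback inhibitors, again 0 passed the rule, beside 0.681% lower and 1.54% higher of all genes, and the median was −0.005. With shares this small, 0 in lists of 17 and 20 genes says little about those lists. Dusp9, an ERK phosphatase highly expressed in mouse embryonic stem cells, read 11.41 in GSK-J4, against 11.85 in GSK-J5, 11.83 in DMSO and 11.85 in EB medium. Lrig1, which restrains receptor tyrosine kinases, read 9.04 in GSK-J4, against 9.38 in GSK-J5, 9.22 in DMSO and 9.41 in EB medium. Both were lowest in GSK-J4, with distances of −0.42 and −0.18.

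Of 25 other ERK target genes measured, all at or above the filter level, 1 was higher and 1 lower by 1.5-fold, beside 2.21% and 0.841% of genes at that level. Another count, of any distance, put 9 above and 11 below all controls, shares near the 38.0% and 35.5% of genes at that level, and the median against GSK-J5 was −0.03. Fos, an immediate early gene, read 7.65 in GSK-J4, against 6.94 in GSK-J5, 6.98 in DMSO and 6.65 in EB medium. Myc, a growth regulator, read 9.75 in GSK-J4, against 10.45 in GSK-J5, 10.49 in DMSO and 10.56 in EB medium. Fos was highest and Myc lowest in GSK-J4, by distances of 0.67 and −0.70.

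**Figure D5:**
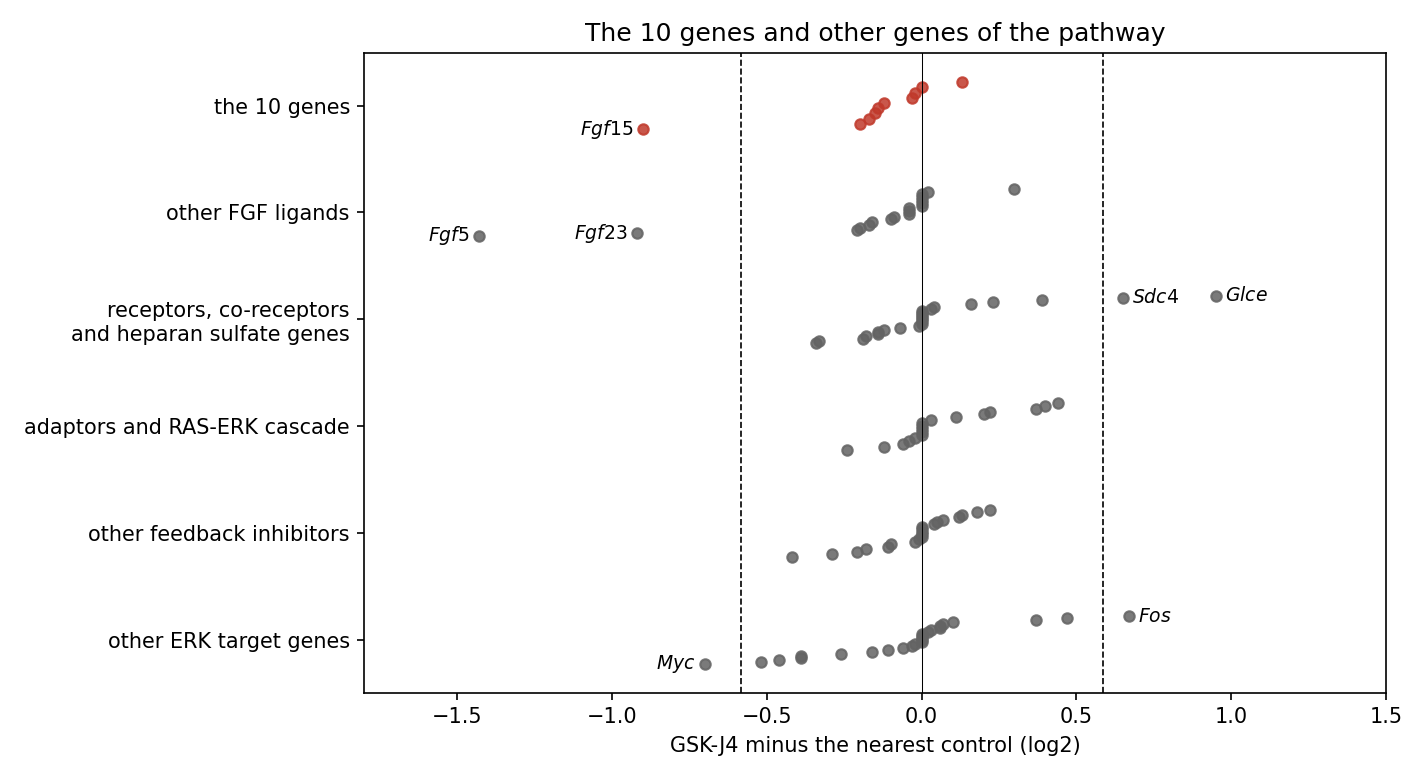
Distance of the GSK-J4 array to the nearest control (log2) for the 10 genes and the measured members of the 5 pathway lists, 1 point per gene, with the 1.5-fold rule as dashed lines and genes past it named. Fgf15, Fgf5, Fgf23 and Myc lie left of the rule, Glce, Sdc4 and Fos right of it, and no gene of the cascade or of the other feedback inhibitors passes it.

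The genes whose profile over the 4 arrays was closest to that of Fgf15, by Euclidean distance after subtracting each gene's own mean, were Myb, Ccnd2 and Sema6a, among 13314 genes. Myb, a transcription factor of proliferating progenitors, read 9.28 in GSK-J4, against 10.20 in GSK-J5, 10.15 in DMSO and 10.31 in EB medium. Ccnd2, which encodes cyclin D2, and Sema6a, an axon guidance gene, had distances to the nearest control of −0.90 and −0.96. For Fgfr1 the closest were Nr1d2, Cybc1 and Gas6, each 0.13 above the nearest control. The likeness rests on 4 arrays, 3 of them controls.

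Array medians over all 41345 probe sets were 6.63 to 6.65. Of the markers of pluripotent cells, all 8 reached the filter level, among them Nanog, Sox2 and Pou5f1. Below all controls in GSK-J4 were 6 of the 8, beside 35.5% of genes at that level. Dnmt3b alone passed the rule, with a distance of −0.77, beside 0.841%. The rest of the 6 were Tdgf1 (−0.36), Lin28a (−0.11), Utf1 (−0.09), Nanog (−0.06) and Pou5f1 (−0.05). Of the markers of other cell types, the filter level was reached by 4 of 9 for feeder fibroblasts, 4 of 8 for primitive endoderm, 6 of 7 for primitive streak and mesoderm, and 7 of 8 for neural progenitors. T of the streak list and Fbn1 of the fibroblast list had no probe set with that symbol alone and were not counted. The median level of the 8 neural markers was 7.26 in GSK-J4, against 7.40 in GSK-J5, 7.54 in DMSO and 7.53 in EB medium. Of them, 7 lay below and 0 above all controls, beside 36.3% and 30.6% of all genes, and none passed the rule. Distances of these 7 ran from −0.42 for Sox1 to −0.03 for Hes5 and Pax6, and Six3 (−0.10) was under the filter level. Streak and mesoderm markers had 5 of 7 below and 0 above all controls, beside the same 36.3% and 30.6%. Eomes passed the rule, with a distance of −0.60, beside 0.681% of all genes. The others below the controls were Mixl1 (−0.02), Wnt3 (−0.04), Tbx6 (−0.06) and Mesp1 (−0.12), and Mesp1 was under the filter level. Endoderm markers had 4 of 8 below and 3 above, beside the same 36.3% and 30.6%. Their median level was 6.58 in GSK-J4, against 6.84 in GSK-J5, 6.79 in DMSO and 6.68 in EB medium, about the filter level. The median of their differences was 0.00 from GSK-J5, −0.12 from DMSO and −0.085 from EB medium. Fibroblast markers had 5 of 9 below and 1 above, beside the same shares. The fibroblast median level was 6.39 in GSK-J4, against 6.61 in GSK-J5, 6.73 in DMSO and 6.60 in EB medium. These medians lie about the filter level, and 3 of the 5 below the controls (Dcn, Lum and Mgp) were under it, so they were not shown to be above background. The part of these cell types in the lower Fgf15, Fgf8 and Fgf17 values was not tested, and fewer cells of a type and less RNA per cell cannot be told apart in bulk RNA.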

How the data were processed

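Total RNA (100 ng, amplified and biotin-labelled, per the labels' protocols) was hybridised to 1 array per treatment. The deposited log2 values came from RMA, which the authors ran in version 1.2.1.20 of Affymetrix Expression Console according to the submitters' processing notes. Base 2 was inferred from the range, 2.20 to 14.48. RMA brings arrays to a common distribution. No scanner files were used. Precision is limited by the number of arrays. Probe sets (23521 of 41345 with 1 symbol in the platform annotation, which can be old) were reduced to the brightest per gene. Differences, counts, medians and motif matches were computed with Python 3.11.15, pandas 2.3.3 and, for loess, statsmodels 0.14.6. Named genes are the 10 genes, list members past 1.5-fold (at most 4 per direction) or else the 2 furthest from GSK-J5, and the 3 closest profiles; Fgf3, as the neighbour of Fgf4, and the cell type markers are named outside this rule. Members, lists, rules and alternatives were chosen with earlier results of these data known. Alternatives were other scalings, folds, filters, reference arrays, probe set summaries, means, and leaving out each control.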

Additional observations from a re-analysis of the deposited data

How the results depend on the processing

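No paired analysis was possible because each treatment has 1 array. The count of 1 lower gene, Fgf15, and of 0 higher genes was the same under median centring, quantile normalization, loess, the median over probe sets, a smaller fold and without each control array. Filters at the 40th and 60th percentiles could not change it. All 10 genes passed the 40th, and the mean level of Fgf15 was at percentile 92.0 of all genes. A smaller fold, or leaving out a control, could only add genes to the count, so neither could remove Fgf15. The deposited values were already scaled by RMA, which left little for rescaling to change. Counting any distance outside the controls gave 8 lower and 1 higher. With means in place of medians the ligand value against GSK-J5 was −0.405 and the outputs lay 0.229 above the ligands, because Fgf15 enters in full. The value of the outputs stayed between −0.21 and −0.14 over 10 alternatives. These include the mean over genes, and differences from DMSO, from EB medium or from the mean of the controls in place of GSK-J5. They also include leaving out DMSO or EB medium, which could not change a difference between GSK-J4 and GSK-J5. The Fgf15 distance ranged from −0.95 to −0.69 and that of Dusp6 from −0.17 to 0.015. Rescaling moved the all-gene median of GSK-J4 against GSK-J5 by at most 0.0325.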
